A study of Mus musculus with 6 samples.

Results

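The 10 genes described here encode the lysosomal proteases cathepsin A, B, C, D, H, K, L, S and Z and legumain. They were taken by symbol (*Ctsa*, *Ctsb*, *Ctsc*, *Ctsd*, *Ctsh*, *Ctsk*, *Ctsl*, *Ctss*, *Ctsz* and *Lgmn*) from the 21358 entries of a table of gene expression in B16F10 tumors, with no threshold on a measured value. All 10 were present and all 10 passed the filter on low values described below. C57/BL6 mice carried subcutaneous B16F10, a melanoma line of the same strain, were lymphodepleted by total body irradiation, and received peptide-activated splenocytes of pmel-1 mice once their tumors reached 150 mm3. In pmel-1 mice a transgenic receptor directs the CD8 T cells against gp100, an antigen of melanoma. This adoptive cell transfer (ACT) of their splenocytes was common to all 6 tumors. In the ACT + IL-2 group this was followed by repeated daily doses of IL-2 (0.4 mg/kg) in each treatment cycle. The ACT + NKTR-214 group was given NKTR-214, IL-2 carrying releasable polyethylene glycol chains, at 0.8 mg/kg once per cycle. Whole tumors of 3 mice per group were taken at day 12 and each gave 1 RNA-seq library, so all values come from 1 transplanted tumor line and hold tumor, stromal and immune cells together.

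Lysosomal proteases are made as inactive precursors, sorted into endosomes and lysosomes, and become active as the compartment acidifies. Most cathepsins are cysteine proteases of the papain family, whereas cathepsin D is an aspartic protease, cathepsin A a serine carboxypeptidase and legumain an enzyme that cuts after asparagine. They degrade endocytosed and autophagic protein, trim antigens and the invariant chain for MHC class II molecules, and, when secreted, cut extracellular matrix. Macrophages and melanoma cells both express them, and cystatins and stefins are their natural inhibitors. The comparison asks how the protease transcripts of a whole tumor differed when ACT was supported by NKTR-214 in place of IL-2.

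Expression is given as FPKM, mapped fragments scaled to the length of the exons of a gene and to the depth of the library. The scaling to length allows levels to be compared between genes. Between tumors the comparison also depends on how the libraries are scaled, and results under 3 other scalings are given below. The number of mapped reads behind each library, estimated from the size of the steps that single reads leave in low values, was about 20900000 to 24700000, and the FPKM of all entries summed to between 176420 and 246514. For each of the 14172 genes that averaged at least 0.1 FPKM, log2(FPKM + 1) was compared between the groups with limma, and a gene was called at a Benjamini-Hochberg adjusted p under 0.05. Values of single tumors are listed in the order of replicates 1, 2 and 3, and SE stands for standard error. All log2 fold changes are ACT + NKTR-214 minus ACT + IL-2 on that scale, and errors are SD with n = 3 tumors per group unless a standard error is named. With 3 tumors against 3, no exact permutation test of one value (two-sided) can go below p = 0.1. The 10 melanocyte markers summed to between 3550 and 8325 FPKM in every tumor, so the labelled tumor type was visible in all libraries.

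All 10 protease genes lay apart between the groups, with the lowest ACT + NKTR-214 tumor above the highest ACT + IL-2 tumor. Of all tested genes, 42.4% were separated in either direction, 27.1% with higher and 15.3% with lower values in ACT + NKTR-214. Of the 10, 9 rose at an adjusted p under 0.05 and none fell, against 20.7% of tested genes called higher and 8.28% called lower (29.0% in either direction). *Ctsz* was the exception, with a log2 fold change of 0.56 and an adjusted p of 0.0587 from limma. The median log2 fold change of the 10 genes was 1.38, beside 0.05 over all tested genes. The summed FPKM of the 10 genes was 1684, 1028 and 1120 in the tumors given IL-2 and 3301, 4309 and 3156 in those given NKTR-214, so the means of the groups differed 2.81-fold. Expressed as a part of the FPKM of all entries in the same tumor, the 10 genes took 0.608% ± 0.110 in ACT + IL-2 and 1.52% ± 0.202 in ACT + NKTR-214. In bulk tissue, more cells of a type and more transcript per cell cannot be told apart, and this holds for each gene below.

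**Figure D1:**
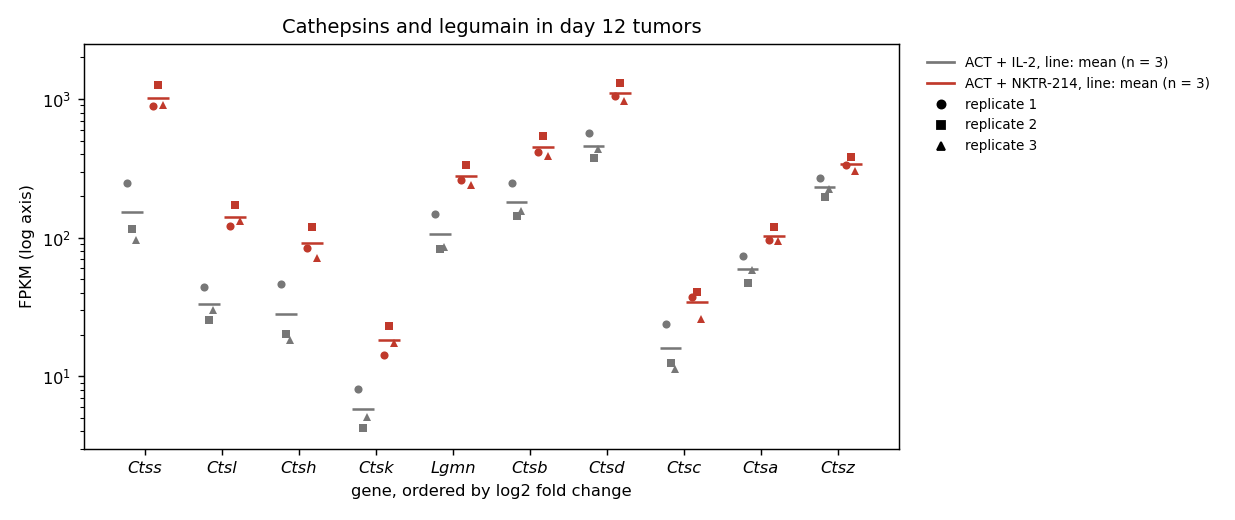
FPKM of the 10 genes on a log axis, 1 point per tumor (marker shape gives the replicate number) and a line at the mean of each group, ACT + IL-2 in grey and ACT + NKTR-214 in red. Genes are ordered by log2 fold change from *Ctss* on the left to *Ctsz* on the right, and the red points of each gene lie above its grey points.

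*Ctss* encodes cathepsin S, an endopeptidase of antigen-presenting cells that removes the last part of the invariant chain from MHC class II and stays active at neutral pH. It had 248, 116 and 96.9 FPKM in the tumors given IL-2 and 896, 1268 and 910.4 FPKM in those given NKTR-214. The lowest ACT + NKTR-214 tumor was thus well above the highest ACT + IL-2 tumor, which was replicate 1. The means were 154 ± 82.2 and 1025 ± 210.4 FPKM, a 6.66-fold difference. The log2 fold change was 2.83 (SE 0.31, limma adjusted p = 5.21e-06), rank 62 of 14172 genes from the top, and it stayed between 2.57 and 3.24 when each tumor was left out in turn.

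The gene lies on chromosome 3 (GRCm38, 95526786 to 95556403, plus strand). The 250 bases before its RefSeq start (build GRCm38.p6, chr3:95526536-95526785, plus strand) are shown because *Ctss* had the largest change of the 10 genes. Capitals mark a match to GAAA, any 2 bases and GAAA, the core of the interferon-stimulated response element, whose first base lies 21 bases before the start.
Ctss: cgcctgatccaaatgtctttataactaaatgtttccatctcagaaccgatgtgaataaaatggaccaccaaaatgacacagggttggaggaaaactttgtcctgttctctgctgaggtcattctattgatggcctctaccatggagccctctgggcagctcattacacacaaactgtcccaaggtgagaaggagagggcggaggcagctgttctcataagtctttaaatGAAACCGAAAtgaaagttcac
This pattern was present on either strand in the same window of 3.45% of the 26994 genes with a RefSeq promoter, and *Ctss* was the only one of the 8 protease genes with a promoter entry to hold it. A match of letters in this window is a description and does not show that a factor bound there.

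*Ctsk* is the neighbour of *Ctss* on the same strand (chromosome 3, 95499256 to 95509362), with 17423 bases between them. It encodes cathepsin K, a collagen-cutting protease best known from osteoclasts. *Ctsk* had the lowest level of the 10 genes in both groups, with 8.09, 4.27 and 5.06 FPKM in the tumors given IL-2 and 14.1, 23.1 and 17.3 FPKM in those given NKTR-214. The groups did not overlap and the log2 fold change was 1.51 (SE 0.21, limma adjusted p = 4.95e-05). The neighbours did not move in proportion. The ratio of *Ctss* to *Ctsk* was 30.7, 27.3 and 19.1 in the ACT + IL-2 tumors and 63.4, 54.9 and 52.5 in the ACT + NKTR-214 tumors, also without overlap (exact permutation p = 0.1, two-sided, which is the lower limit). Of 4 osteoclast markers, *Calcr* and *Oscar* were too low to test, *Dcstamp* was not called, and *Ocstamp* rose with a log2 fold change of 0.35 (limma adjusted p = 0.0275) from a mean of 0.222 FPKM, with overlapping tumors and no call after quantile normalization.

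*Ctsl* encodes cathepsin L, an endopeptidase found in most cell types. It had 44.2, 25.5 and 30.3 FPKM in the ACT + IL-2 tumors and 122, 172 and 131 FPKM in the ACT + NKTR-214 tumors. The means of 33.3 ± 9.75 and 141 ± 26.7 FPKM differed 4.24-fold, the second largest difference of the 10, with a log2 fold change of 2.07 (standard error 0.20) and the lowest adjusted p of the 10 genes, 1.75e-06 from limma. In GENCODE vM21, 26.8% of the exon bases of *Ctsl* (chromosome 13, 64359337 to 64370890, minus strand) also belong to the gene models *Gm47123* and *Gm49230*, and whether the read counting used strand is not given in the sources used here.

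*Ctsb* and *Ctsd* are abundant lysosomal proteases. *Ctsd*, the aspartic protease cathepsin D, was the highest of the 10 genes in both groups, with 574, 376 and 434 FPKM in the tumors given IL-2 and 1045, 1309 and 972 FPKM in those given NKTR-214. The 3 tumors of each group lay apart from those of the other, and the log2 fold change was 1.27 (SE 0.27, limma adjusted p = 0.00222). *Ctsb* encodes cathepsin B, which acts both as an endopeptidase and as a dipeptidyl carboxypeptidase. It had 247, 144 and 155 FPKM against 414, 542 and 389 FPKM, again with no overlap, and a log2 fold change of 1.32 (SE 0.24, limma adjusted p = 0.000607). Of the exon bases of *Ctsd* (chromosome 7, 142375911 to 142388038, minus strand), 34.4% also belong to the model *Gm49369* on the same strand, and 12.8% of those of *Ctsb* (chromosome 14, 63122462 to 63145923, plus strand) to *Fdft1* on the opposite strand, a gene that was not called (log2 fold change -0.05, limma adjusted p = 0.846). The part that shared exons had in these values was not tested.

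*Lgmn* encodes legumain, which cuts after asparagine and also converts single-chain cathepsins into their mature forms. Its level was 147, 83.5 and 85.9 FPKM in the ACT + IL-2 tumors and 260.4, 335 and 240.4 FPKM in the ACT + NKTR-214 tumors, a log2 fold change of 1.43 (SE 0.23, limma adjusted p = 0.000203) with no overlap. The gene lies on chromosome 12 (102394084 to 102439813, minus strand).

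The genes of the exopeptidases, which trim single residues or dipeptides from chain ends, differed in how far they changed. *Ctsh* encodes cathepsin H, an aminopeptidase, and had 46.5, 20.3 and 18.2 FPKM in ACT + IL-2 against 84.2, 119 and 71.6 FPKM in ACT + NKTR-214. Its ACT + IL-2 tumors varied most of all 10 genes (coefficient of variation 55.8%), with replicate 1 above the other two. The log2 fold change of *Ctsh* was 1.75 (SE 0.28, limma adjusted p = 0.000168). *Ctsc* encodes cathepsin C, the dipeptidyl peptidase that activates granzymes and neutrophil serine proteases. Its values were 23.8, 12.5 and 11.4 FPKM and 37.1, 40.8 and 25.8 FPKM, so that the nearest tumors of the groups were replicate 1 of ACT + IL-2 and replicate 3 of ACT + NKTR-214. The log2 fold change of *Ctsc* was 1.12 (SE 0.23, limma adjusted p = 0.00166), and without ACT + IL-2 replicate 2 it was 0.996 and no longer called (adjusted p = 0.0595).

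*Ctsa* and *Ctsz* had the lowest estimates. *Ctsa* encodes cathepsin A, which also forms a protective complex with the lysosomal enzymes beta-galactosidase and neuraminidase. It had 74.0, 47.5 and 58.2 FPKM in ACT + IL-2 and 96.4, 119 and 94.4 FPKM in ACT + NKTR-214, and rose by a log2 fold change of 0.79 (SE 0.18, limma adjusted p = 0.00388). *Ctsz* encodes cathepsin Z, a cysteine carboxypeptidase. It had 271, 197 and 226 FPKM in ACT + IL-2 and 332, 381 and 304 FPKM in ACT + NKTR-214, and although the groups did not overlap its log2 fold change of 0.56 (standard error 0.21, 95% interval 0.11 to 1.00) missed the threshold. It was called in 1 of the 6 fits that left out a tumor, without ACT + IL-2 replicate 1 (limma adjusted p = 0.0186). It was also called after 75th percentile scaling (adjusted p = 0.00944), scaling to a common sum (0.0135), with a minimum mean of 1 FPKM (0.0307), without the trend (0.0182) and with the replicate block (0.0422), but not with quantile normalization (0.0587), a pseudocount of 0.1 (0.0540), no minimum (0.118) or no moderation (0.112). In *Ctsa* (chromosome 2, 164832873 to 164841032, plus strand), 17.4% of the exon bases also belong to *Pltp* and *Neurl2* on the opposite strand, and *Pltp* itself rose by a log2 fold change of 1.15 (limma adjusted p = 0.0106).

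**Figure D2:**
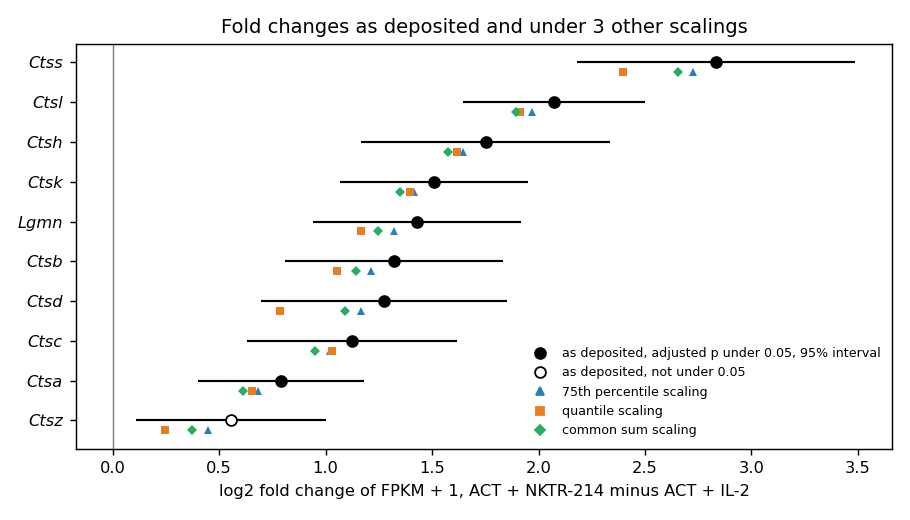
Log2 fold change of FPKM + 1 for each gene (horizontal axis, ACT + NKTR-214 minus ACT + IL-2) with its 95% interval from limma, filled where the adjusted p was under 0.05, and below it the value under 3 other scalings of the libraries. Every estimate is above 0, and *Ctsz*, the open circle, is the lowest under each scaling.

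The genes were ranked by these same fold changes, so the differences between neighbours in that order are given as a description. The difference within a tumor between *Ctss* and *Ctsl* was 0.76 higher in ACT + NKTR-214 on the log2 scale, that between *Lgmn* and *Ctsb* 0.11 and that between *Ctsa* and *Ctsz* 0.24, each without overlap between the groups. In the other 6 of the 9 neighbouring pairs the tumors overlapped. In level, *Ctsd* stood highest in ACT + IL-2, followed without overlap by *Ctsz*, *Ctsb*, *Ctss* and *Lgmn*, whose tumors overlapped from each gene to the next. Below them came *Ctsa*, then *Ctsl*, *Ctsh* and *Ctsc*, which again overlapped in turn, and *Ctsk*. In ACT + NKTR-214 *Ctsd* and *Ctss* stood highest and overlapped. They were followed by *Ctsb*, by *Ctsz* and *Lgmn* with overlap between them, by *Ctsl*, by *Ctsa* and *Ctsh* with overlap, and by *Ctsc* and *Ctsk*.

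The fold changes of the 10 genes differed in size, and the make-up of the protease transcripts differed between the groups. Shares of the summed FPKM of the 10 genes within a tumor do not move with a scale factor of the library. *Ctss* made up 14.7%, 11.3% and 8.64% of the sum in the tumors given IL-2 and 27.2%, 29.4% and 28.8% in those given NKTR-214. Its mean share thus differed by 16.9 percentage points (exact two-sided permutation p = 0.1). The share of *Ctsl* was also higher in each ACT + NKTR-214 tumor, at 3.94% ± 0.238 against 2.60% ± 0.116. In return, 4 genes had lower shares in each ACT + NKTR-214 tumor although their FPKM was higher. The share of *Ctsz* was 18.5% ± 2.11 in ACT + IL-2 and 9.51% ± 0.613 in ACT + NKTR-214, that of *Ctsd* 36.5% ± 2.31 and 30.9% ± 0.653, that of *Ctsb* 14.2% ± 0.431 and 12.5% ± 0.139, and that of *Ctsa* 4.73% ± 0.415 and 2.89% ± 0.114. The shares of *Lgmn*, *Ctsh*, *Ctsc* and *Ctsk* overlapped between the groups. Of the 10 shares, which add up to a fixed total and so depend on each other, none could reach a p below 0.1, adjusted or not.

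**Figure D3:**
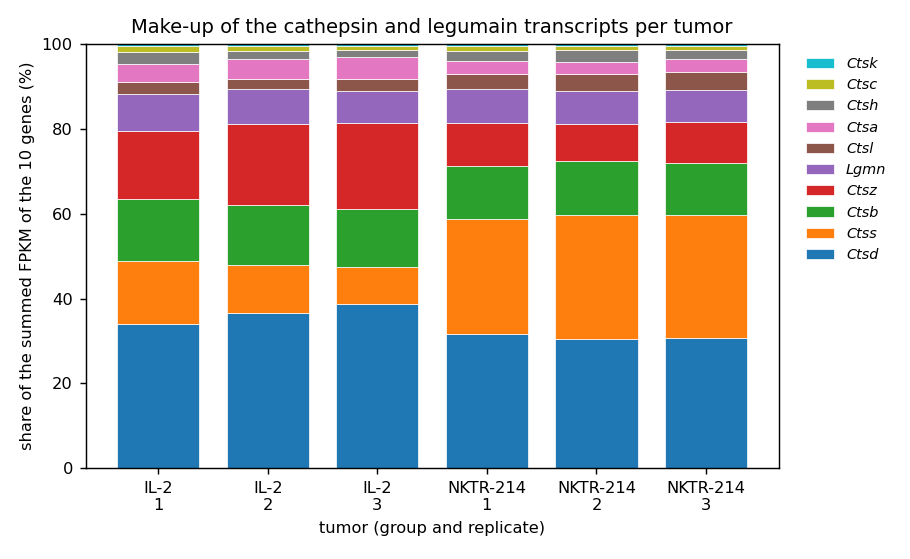
Share of each gene in the summed FPKM of the 10 genes (vertical axis, percent), 1 bar per tumor. The *Ctss* segment spans 8.64 to 14.7% of the bar in the ACT + IL-2 tumors and 27.2 to 29.4% in the ACT + NKTR-214 tumors, while the *Ctsz* segment is narrower in the latter.

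The tumors of a group also kept an order. ACT + IL-2 replicate 1 had the highest value of its group for 10 of the 10 genes, and ACT + NKTR-214 replicate 2 for 10 of 10. Of all tested genes, 29.0% were highest in these same tumors, 55.4% in the former and 39.4% in the latter within its group. The lowest value lay in ACT + IL-2 replicate 2 for 7 genes and in replicate 3 for 3, and in ACT + NKTR-214 replicate 3 for 7 genes and in replicate 1 for 3. The FPKM of all entries in a tumor summed highest in these same tumors too, at 231070 and 246514, and lowest in replicate 2 of ACT + IL-2 and replicate 3 of ACT + NKTR-214, at 176420 and 217581. As a part of that total, the 10 genes took 0.729%, 0.582% and 0.513% in the tumors given IL-2 and 1.36%, 1.75% and 1.45% in those given NKTR-214, with the highest parts still in the same tumors. The sum of 9 macrophage markers (*Adgre1*, *Csf1r*, *Cd14*, *Fcgr1*, *C1qa*, *C1qb*, *C1qc*, *Mrc1* and *Mertk*) was 725, 328 and 238 FPKM in the tumors given IL-2 and 1176, 1632 and 935 FPKM in those given NKTR-214, and 9 of the 9 markers were called higher. It was highest in the tumors in which the proteases were highest, as were the sums of the T cell, dendritic cell, neutrophil, fibroblast, endothelial, B cell and osteoclast markers. The macrophage sum was lowest in replicate 3 of each group. The sum of 10 melanocyte markers went the other way, with 7674, 6495 and 8325 FPKM in ACT + IL-2 and 4815, 3550 and 4665 FPKM in ACT + NKTR-214, and 7 of the 10 markers were called lower. The list includes *Gpnmb*, which macrophages express too and which was not called. T cell markers were called higher in 7 of 7 cases (summed level 12.5 to 28.0 FPKM in ACT + IL-2 and 145 to 315 FPKM in ACT + NKTR-214), dendritic cell markers in 5 of 6 (7.81 to 12.7 and 20.5 to 35.6 FPKM) and neutrophil markers in 4 of 4 tested (4.01 to 9.26 and 21.9 to 49.5 FPKM), with *Ly6g* untested, at 0 in all tumors except ACT + NKTR-214 replicate 2 (0.133 FPKM). Fibroblast markers were called higher in 5 of 6 cases with overlapping sums (216 to 645 and 578 to 1160 FPKM). Of the endothelial markers 1 of 5 was called. B cell markers (0 of 2 tested called, at most 1.97 FPKM in sum) and keratinocyte markers (0 of 2 tested called, at most 1.27 FPKM in sum, with *Krt1* at 0 in all 6 tumors) were near 0. Under the 3 other scalings, 8 of 9 macrophage and 2 of 6 fibroblast markers were called higher and 10 of 10 melanocyte markers lower, and with quantile normalization 2 of 6 dendritic cell markers were called. What part these cell types had in the protease transcripts was not tested.

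**Figure D4:**
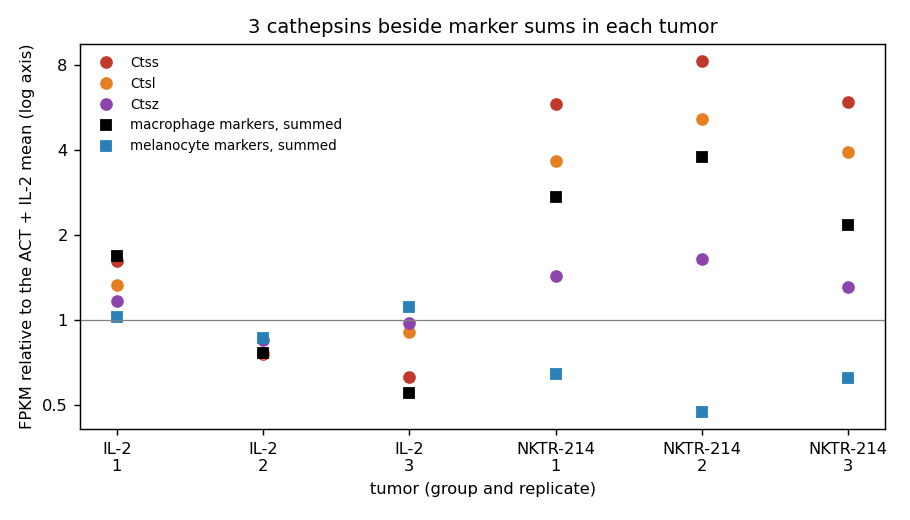
FPKM of *Ctss*, *Ctsl* and *Ctsz* (circles) and of the summed macrophage and melanocyte markers (squares) in each tumor, each divided by its mean in ACT + IL-2 and drawn on a log axis. In the ACT + NKTR-214 tumors *Ctss* lies highest, *Ctsz* lies below the macrophage markers, and the melanocyte markers lie below 1.

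Natural inhibitors rose beside the proteases. *Cst3* encodes cystatin C, the main secreted inhibitor of papain-family cathepsins, and had 219, 134 and 152 FPKM in the tumors given IL-2 and 390.1, 494 and 328 FPKM in those given NKTR-214. Its log2 fold change of 1.27 (SE 0.23, limma adjusted p = 0.000653) equalled that of *Ctsd* to 2 decimals. *Cstb*, the gene of the cytosolic inhibitor stefin B, rose by 1.01 (adjusted p = 0.000647) and *Cst6* by 0.76 (adjusted p = 0.00233). *Cst7* encodes cystatin F, which cytotoxic lymphocytes and myeloid cells deliver to lysosomes, where it inhibits cathepsin C. It rose from 1.74 ± 0.420 to 21.9 ± 2.91 FPKM, a log2 fold change of 3.07 (limma adjusted p = 6.48e-09) against 1.12 for *Ctsc*. *Stfa2l1* was at or below 0.304 FPKM in every tumor and was not called, and *Cst8*, *Stfa1*, *Stfa2* and *Stfa3* were listed at 0 throughout.

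Set against *Cst3* in the same tumor, the summed FPKM of the 10 proteases was 7.70, 7.66 and 7.39 times as high in ACT + IL-2 and 8.46, 8.72 and 9.61 times as high in ACT + NKTR-214. The difference was 0.23 on the log2 scale. *Ctss* had the largest fold change of the 10 genes, so leaving it out was bound to lower this difference. Without *Ctss*, a choice made after seeing the data, the groups overlapped and the difference was -0.072, whereas the ratio of *Ctss* alone to *Cst3* was 0.880 ± 0.248 in ACT + IL-2 and 2.55 ± 0.238 in ACT + NKTR-214.

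Of 13 further cathepsin genes, 5 reached the filter and all 5 were called higher. *Ctsw* encodes cathepsin W, a protease of CD8 T cells and NK cells. It had 2.64, 1.78 and 1.39 FPKM in ACT + IL-2 and 30.4, 39.2 and 16.5 FPKM in ACT + NKTR-214, and its log2 fold change of 3.28 (limma adjusted p = 1.61e-07) was above that of each of the 10 lysosomal members. *Ctsg*, a serine protease of neutrophil and monocyte granules, was at 0.0419, 0 and 0.143 FPKM in ACT + IL-2 and 4.58, 7.34 and 4.25 FPKM in ACT + NKTR-214 (log2 fold change 2.56, limma adjusted p = 4.77e-08). The papain-family genes *Ctso* (0.94, adjusted p = 0.000315) and *Ctsf* (0.81, adjusted p = 0.000936) rose by less, and *Ctse*, an aspartic protease, by 0.43 (adjusted p = 0.0117) from a low level with overlapping tumors. *Ctse* was called in 5 of the 6 fits that left out a tumor and missed the threshold with quantile normalization (limma adjusted p = 0.0602). The placental cathepsins *Cts3*, *Cts6*, *Cts7*, *Cts8*, *Ctsj* and *Ctsm* were listed at 0 in all 6 tumors.

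Over the lists of other cathepsins, inhibitors, hydrolases, activators, membrane proteins, proton pump, sorting and transcription factors together, 37 of 89 tested genes (41.6%) were called higher and 7 (7.87%) lower, with a median log2 fold change of 0.31. Over all tested genes the called parts were 20.7% and 8.28%. The lower calls depended on how the libraries were scaled. They numbered 15, 18 and 25 of the 89 after 75th percentile, quantile and common sum scaling. Under the same scalings, 3709, 4549 and 4440 of the 14172 tested genes were called lower, a larger part in each case. Among 28 glycosidases, lipases, sulfatases and phosphatases, 13 were higher and 2 lower, with *Acp5*, the tartrate-resistant phosphatase of osteoclasts and macrophages, at 2.25 (limma adjusted p = 1.50e-05) and the phospholipase gene *Pla2g15* at 1.39 (adjusted p = 5.00e-05). The sphingomyelinase gene *Smpd1* fell by 0.91 (adjusted p = 0.000542) and *Galc*, which degrades galactosylceramide, by 0.42 (adjusted p = 0.0489), the latter passing in 1 of the 6 fits that left out a tumor. Of 6 other lysosomal peptidases, 3 rose, led by the aspartic protease *Napsa* (2.33, adjusted p = 4.37e-06) and the carboxypeptidase *Prcp* (0.92, adjusted p = 0.00192). Of the 5 activators and lipid carriers, 4 rose, among them *Psap*, the precursor of the saposins (1.57, adjusted p = 0.000813), and *Gm2a*, the activator of ganglioside GM2 hydrolysis (1.55, adjusted p = 9.03e-06).

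In the V-ATPase, the pump that acidifies the lysosome, 2 of 18 genes rose and 2 fell, with a median log2 fold change of -0.07. Each count was 11.1% of the list, against 20.7% of all tested genes called higher and 8.28% called lower. The counts depended on the scaling, with 4 higher and 7 lower after 75th percentile scaling. They were 4 and 8 after quantile normalization and 3 and 9 after scaling to a common sum. Lower calls over all 14172 tested genes also rose under these scalings, from 1173 to 3709, 4549 and 4440. The genes called higher as deposited were *Atp6v0d2*, a subunit form of osteoclasts and macrophages, which went from 2.84 ± 0.689 to 27.7 ± 3.81 FPKM (2.91, limma adjusted p = 1.30e-08), and *Tcirg1*, another subunit form of osteoclasts (0.60, adjusted p = 0.0133, passing in 4 of the 6 fits that left out a tumor). The subunit genes *Atp6v0a1* (-0.81, adjusted p = 0.000891) and *Atp6v1g1* (-0.41, adjusted p = 0.0475, passing in 1 of the 6 fits that left out a tumor) fell. Among 12 membrane proteins, 4 rose, including the hematopoietic *Laptm5* (2.27, adjusted p = 1.75e-05) and the macrophage sialomucin *Cd68* (1.91, adjusted p = 3.70e-05), and *Laptm4b* fell by 0.71 (adjusted p = 0.00283). *Lamp1*, the major membrane protein, had 191 ± 39.3 and 289.9 ± 36.6 FPKM (0.61, adjusted p = 0.0385), while *Cd63* had 120.2 ± 15.4 and 127 ± 2.51 FPKM and was not called (0.09, adjusted p = 0.747). *Lamp1* and *Cd63* are outside the rule by which genes were named and were chosen after their values were seen. Of 6 sorting genes, *Nagpa*, which uncovers the mannose 6-phosphate tag, rose by 0.54 with overlapping tumors (adjusted p = 0.0355, named after its value was seen), and *Sort1*, the sortilin receptor, fell by 0.79 (adjusted p = 0.00128).

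**Figure D5:**
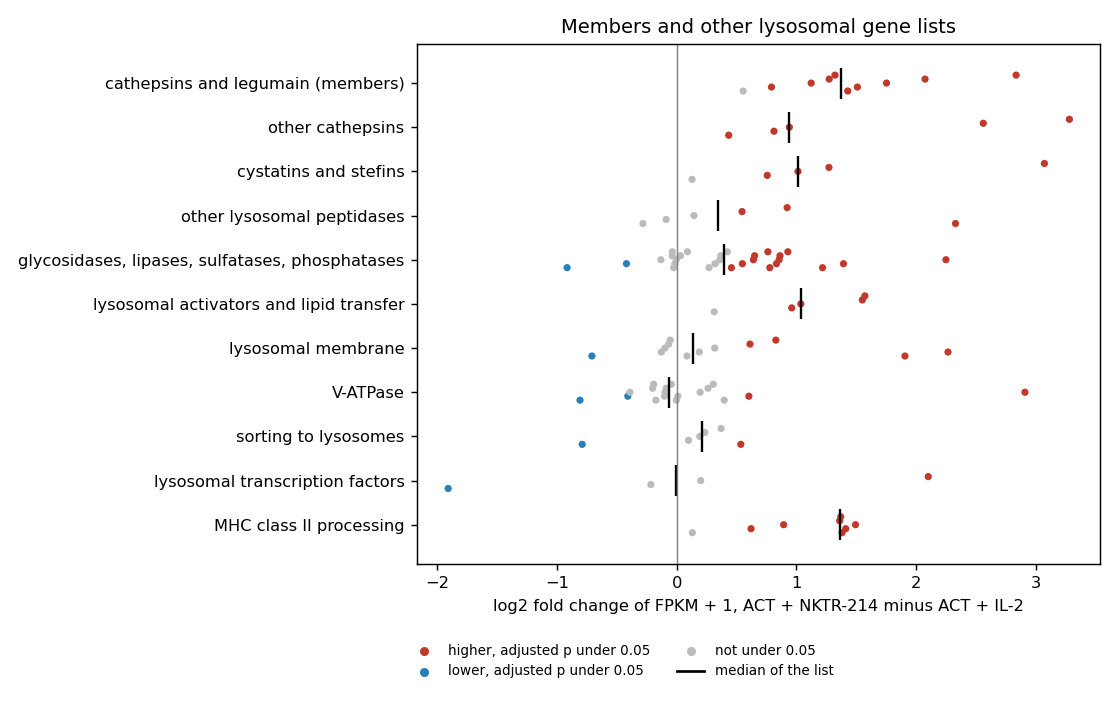
Log2 fold change of FPKM + 1 (horizontal axis) of each tested gene in 11 lists, red for genes called higher and blue for genes called lower with NKTR-214, with a black bar at the median of the list. The protease members lie to the right of 0, whereas the V-ATPase list has its median at -0.07.

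The transcription factors of the MiT/TFE family, which bind CACGTG elements of lysosomal and melanocyte genes, moved apart. *Mitf*, the melanocyte member, fell from 115 ± 14.2 to 31.1 ± 10.2 FPKM (log2 fold change -1.91, limma adjusted p = 7.65e-06). *Tfec*, the macrophage member, rose from 1.15 ± 0.791 to 7.86 ± 0.890 FPKM (2.10, adjusted p = 2.16e-06). *Tfeb* (-0.22, adjusted p = 0.317) and *Tfe3* (0.20, adjusted p = 0.367) were not called as deposited, and are outside the rule by which genes were named. After 75th percentile, quantile and common sum scaling *Tfeb* was called lower (-0.32, -0.33 and -0.38, limma adjusted p = 0.00539, 0.00472 and 0.0032), while *Tfe3* was not called.

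RefSeq promoters were matched by symbol for 8 of the 10 protease genes, the others being *Ctsb* and *Ctsh*. In the 250 bases before the listed starts, CACGTG was found in 4 of these 8 genes (*Ctsa*, *Ctsd*, *Ctsl* and *Lgmn*), in 20.3% of 79 other lysosomal genes and in 6.86% of all 26994 genes. The longer TCACGTGA, which contains CACGTG, was found in *Ctsa* and *Ctsd*, against 7.59% of the 79 other lysosomal genes and 0.908% of all genes. CACGTG and TCACGTGA read the same on both strands, and a gene with several listed starts was counted if any of them held the motif. In *Ctsl*, *Lgmn* and *Ctsa* the window with the match lay inside the gene as placed by GENCODE vM21, not before its first base. The more upstream listed starts of *Lgmn* and *Ctsa* held no match. The windows of *Ctsd* (build GRCm38.p6, chr7:142387828-142388077, minus strand) and of the downstream start of *Ctsa* (chr2:164833523-164833772, plus strand) are shown because they hold the longer form, with CACGTG and TCACGTGA in capitals.
Ctsd: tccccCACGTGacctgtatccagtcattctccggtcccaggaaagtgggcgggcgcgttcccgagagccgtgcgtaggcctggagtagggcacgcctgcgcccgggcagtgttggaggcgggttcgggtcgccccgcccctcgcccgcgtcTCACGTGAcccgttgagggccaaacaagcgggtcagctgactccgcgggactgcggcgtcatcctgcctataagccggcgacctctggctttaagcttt
Ctsa: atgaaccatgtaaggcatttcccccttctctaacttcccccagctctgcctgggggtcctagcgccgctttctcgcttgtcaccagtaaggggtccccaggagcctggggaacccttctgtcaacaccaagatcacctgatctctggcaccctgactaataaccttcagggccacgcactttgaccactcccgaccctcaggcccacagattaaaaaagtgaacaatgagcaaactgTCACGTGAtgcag
In *Ctsd* the matches to CACGTG begin 245 and 98 bases before the start, and in *Ctsa* 12 bases before it. The 4 genes with CACGTG had log2 fold changes of 0.79 to 2.07, and the 4 without it (*Ctsc*, *Ctsk*, *Ctss* and *Ctsz*) 0.56 to 2.83. Whether the motif had a part in the fold changes was not tested.

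The MHC class II machinery, a main client of cathepsin S and legumain in antigen-presenting cells, was tested as 8 genes, of which 7 were called higher and none lower, with a median log2 fold change of 1.37. *H2-Ab1*, a class II beta chain, rose by 1.49 (limma adjusted p = 0.000823) and *Ifi30*, a thiol reductase that opens disulfide bonds of antigens in the lysosome, by 1.41 (adjusted p = 0.00015). *Cd74*, the invariant chain that cathepsin S cuts, had 702 ± 255 and 1750 ± 282 FPKM (1.36, adjusted p = 0.00482) and was named after its value was seen.

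For each protease, the genes with the most similar profile were sought among 5249 genes with a mean of at least 10 FPKM, as the smallest Euclidean distance between mean-centred log2(FPKM + 1) profiles over the 6 tumors. With groups this far apart, the distance reflects mainly the size of the group difference. *Ctss* was closest to the chemokine gene *Ccl9* (distance 0.40), followed by *Pla2g7*, which encodes platelet-activating factor acetylhydrolase, and the proteoglycan gene *Srgn*. *Ctsl* was closest to the receptor genes *Lilrb4a* (0.25) and *Lilr4b*, and *Ctsh* to *Mpeg1* (0.15), the perforin-like gene of macrophages. *Ctsd* was closest to *Pld3* (0.11), another lysosomal enzyme gene. *Ctsb* and *Lgmn* shared *Cndp2* and *Bcl3* among their 3 closest genes. *Ctsz* was closest to *Pttg1ip* (0.06), with the lysosomal protease gene *Sppl2a* also among its 3 closest, and *Ctsk* was closest to *Bmp1* (0.21), which encodes a procollagen-processing protease.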

How the data were processed

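RNA from whole tumors of 3 ACT + IL-2 and 3 ACT + NKTR-214 mice was sequenced by the authors as 50-base single-end reads, mapped to GRCm38 with HISAT2 2.0.4 and counted per gene with HTSeq. The authors deposited linear FPKM values for every tumor separately, and no scaling beyond that of FPKM is stated; the gene annotation and the strand setting are not given in the sources used here. Read counts were not used. The reads behind each library were estimated from the FPKM times the GENCODE vM21 exon length that 1 read adds; of the low values, 39.3 to 42.0% lay within 0.1 of a whole read under these lengths, so the estimate is approximate. 

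FPKM was taken as log2(FPKM + 1), and genes with a mean of at least 0.1 FPKM were tested with limma 3.58.1 in R 4.3.3 (lmFit, eBayes with trend, no block), with Benjamini-Hochberg adjustment over the 14172 genes and a threshold of 0.05. Shares and ratios within a tumor were compared by exact permutation (two-sided) (scipy 1.17.1), without adjustment over the members. In simulated data on 14103 genes, 74 of 100 genes changed by 1 on the log2 scale and 97 of 100 changed by 2 were called, with 9 unchanged genes called. The simulation gave each gene independent noise, had no shifts shared by the genes of a tumor, and changed far fewer genes than were called here. It therefore does not measure the error rate in these data.

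The genes named are the 10 members, each tested cystatin, stefin and other cathepsin, and, from every other lysosomal list, up to 2 genes per direction with the largest change among those called with a mean of at least 1 FPKM and no overlap between groups. One gene of the macrophage marker list is not reported here and was left out of its sum. The members and lists were chosen with earlier results of these data known. The fit was repeated with 0.1 as the pseudocount, with mean FPKM filters of 1 or none, after scaling to the 75th percentile or quantile normalization, without the trend or without any moderation, with the replicate number as a block and with each tumor left out in turn; scaling to a common sum and the ratio without *Ctss* were added after seeing the data. Promoters are from RefSeq (GRCm38.p6) and positions from GENCODE vM21. Nothing says that same-numbered tumors share a batch.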

Additional observations from a re-analysis of the deposited data

How the results depend on the processing

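All 10 protease genes kept a positive log2 fold change under every alternative. The number called higher was 8 to 10 when each tumor was left out (8 without ACT + IL-2 replicate 2, 10 without ACT + IL-2 replicate 1) and 9 or 10 under the other alternatives except one. When each gene's variance was estimated from its own 6 values, 0 of the 10 were called by limma (adjusted p 0.0595 to 0.134, and 10 at an unadjusted p under 0.05), with 3 other lysosomal genes higher and 0 lower, and 101 genes higher and 27 lower over all genes. With the scalings, the other lysosomal genes called lower numbered 15 (75th percentile), 18 (quantile) and 25 (common sum, added after seeing the data) against 7, and all genes called lower 3709, 4549 and 4440 against 1173, so that 46.8%, 37.0% and 39.7% of calls were higher in place of 71.5%. Quantile normalization and the common sum shifted the median over all genes, on the log2 scale, by -0.15 and -0.13, and the median of the protease genes still exceeded that of all genes by 1.21 and 1.28, against 1.33 as deposited. With each tumor left out, genes called lower ranged from 636 (without ACT + IL-2 replicate 3) to 1996 (without ACT + IL-2 replicate 2), with 680 without ACT + NKTR-214 replicate 2. The log2 difference of the protease to *Cst3* ratio was -0.072 without *Ctss* (0.23 with it) and 0.18 to 0.27 with each tumor left out. The deviations of same-numbered tumors from their group means correlated across genes at -0.21 and -0.07 for replicates 1 and 2 and at 0.40 for replicate 3, so the numbers were not taken to pair the tumors. Between tumors of different numbers, the correlations with ACT + NKTR-214 replicate 2 ran from -0.54 for ACT + IL-2 replicate 3 to 0.59 for ACT + IL-2 replicate 1. A fit with the replicate number as a block called 10 protease genes higher, 37 other lysosomal genes higher and 5 lower, and 3090 genes higher and 1227 lower. The cause of these shifts was not tested. Depth is known only as an estimate, and 3 tumors per group limit the precision.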

Other observations

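The ratios in this paragraph were chosen after the values were seen. *Ctss* divided by the summed FPKM of the 9 macrophage markers was 0.342, 0.355 and 0.408 in the tumors given IL-2 and 0.762, 0.777 and 0.974 in those given NKTR-214. The groups did not overlap. The sum is made up mostly of *C1qa*, *C1qb* and *C1qc*, and whether the ratio follows macrophage content was not tested. For the sum of all 10 proteases over the same markers, the values were 2.32, 3.13 and 4.71 in ACT + IL-2 and 2.81, 2.64 and 3.38 in ACT + NKTR-214, which overlap. The ratio of *Ctsl* to *Ctsz* was 0.142 ± 0.0182 in ACT + IL-2 and 0.416 ± 0.0442 in ACT + NKTR-214 (SD, n = 3 each), again without overlap.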
